A study of Mus musculus with 9 samples.

Results

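Atcay, Mrgprg, Ablim3 and Colq are 4 of the 23420 genes counted, grouped here as little-known genes of thymus mesenchyme. They were chosen by name because their levels were high in the thymus and near absent in bone or skin. Those levels are therefore given as a description, and tests are given only for relatives, partners and chromosomal neighbours of the 4 genes.

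Each gene is best known from another setting. Atcay encodes caytaxin, a cytosolic protein of neurons with a lipid-binding CRAL-TRIO domain, and its loss causes ataxia in mice and in people with Cayman ataxia. Mrgprg encodes an orphan receptor of the Mas-related G protein-coupled family, whose better known members act in itch and pain neurons and in mast cells. Ablim3 encodes an actin-binding protein with LIM domains at one end and a villin headpiece at the other, which works with the muscle protein STARS upstream of the transcription factor SRF. Colq encodes ColQ, the collagen tail that ties acetylcholinesterase, the enzyme that breaks down acetylcholine, to the basal lamina of the neuromuscular junction. Mesenchymal cells of the thymus form its capsule and septa and surround its vessels, and they supply matrix and growth factors to the epithelium.

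RNA was sequenced from mesenchymal cells of C57BL/6 mice aged 3 to 4 weeks, with 3 libraries each from thymus, from bone (pelvis, tibia and femur) and from the dermis of the trunk (back and abdomen). All cells were sorted as SCA1-positive and negative for lineage markers: those of blood cells (CD45, B220, CD2, CD4, GR-1, CD11b, CD41 and TER119), of epithelium (EpCAM) and of endothelium (CD31). Each sample held at least 25000 cells; thymus and bone were digested with Liberase and DNase, bone was also crushed and depleted of red cells, and how skin was digested is not stated in the labels. The thymus libraries are named 2, 3 and 1-3; what 1-3 stands for is not given, and if it is a pool, the thymus libraries share material.

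The libraries held 78757872 to 116759235 reads on genes. The unit CPM is the count of a gene scaled to a common library size (counts per 1e+06 gene reads) with TMM, a correction for differences in library composition. All 9 mesenchymal markers, such as Pdgfra, Dcn and Col1a1, stood at 1 CPM or more in every tissue, and their summed level was 52287 to 55338 CPM in thymus, beside 67286 to 68102 in bone and 333010 to 370150 in skin. The bone libraries also carried RNA of myeloid markers, at 2571 to 3561 CPM summed over 8 genes, against 18.7 to 76.7 in thymus and 15.8 to 55.1 in skin. In bulk libraries, fewer cells with a transcript and less transcript per cell cannot be told apart. No label ties libraries to separate animals, so a p-value here measures the spread between these libraries only.

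Atcay came closest of the 4 to an all-or-none pattern. It lies on the minus strand of chromosome 10 at 81204513 to 81230779 in mm10, a span of 26.3 kb with 13 exon blocks. Atcay stood at 37.2 CPM in thymus library 2, 29.8 in thymus library 3 and 25.6 in thymus library 1-3, from 4435, 3559 and 2611 reads. Bone held 2 Atcay reads in all, both in library 2, and skin held 0. The thymus libraries were thus the only ones with more than 2 reads, and the bone and skin levels could not be ordered.

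The mean level of Atcay in thymus was 30.9 ± 5.89 CPM (SD, n = 3). This was 4863 times its level in bone, with a 95% counting interval of 1346 to 40160 that covers counting error only. Against skin it was at least 2509-fold higher, taking 3 reads over the skin libraries together (0.0123 CPM) as the limit that a count of 0 allows. An antisense gene, listed as 2310050B05Rik in the counts, shares 432 exon bases with Atcay, which is 10.8% of the Atcay exons. That antisense gene had a mean of 0.0261 CPM in thymus, beside 0 in bone and 0.195 in skin, so it was not high where Atcay was. Without the strand setting of the counts, which no source used here gives, reads of the pair cannot be told apart.

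Markers of neurons, the cells in which Atcay is best known, were highest in skin as a sum. Their sum over 12 genes was 3.92 to 10.6 CPM in thymus, beside 3.46 to 6.42 in bone and 66.5 to 129 in skin, where Atcay had 0 reads. Elavl3, Elavl4, Nefl and Scn9a, which encode neuronal RNA-binding, filament and channel proteins, had 0 reads in the thymus libraries. Of these, Elavl3, Elavl4 and Scn9a also had 0 reads in skin, and Elavl4 and Nefl in bone. Snap25, another gene of the list, was read in thymus and had 0 reads in bone and skin. In thymus and skin most of the sum came from Gap43, a growth-cone protein, at 5.69 CPM in thymus and 95.8 in skin. The part of neurons in the level of Atcay was not tested.

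**Figure D1:**
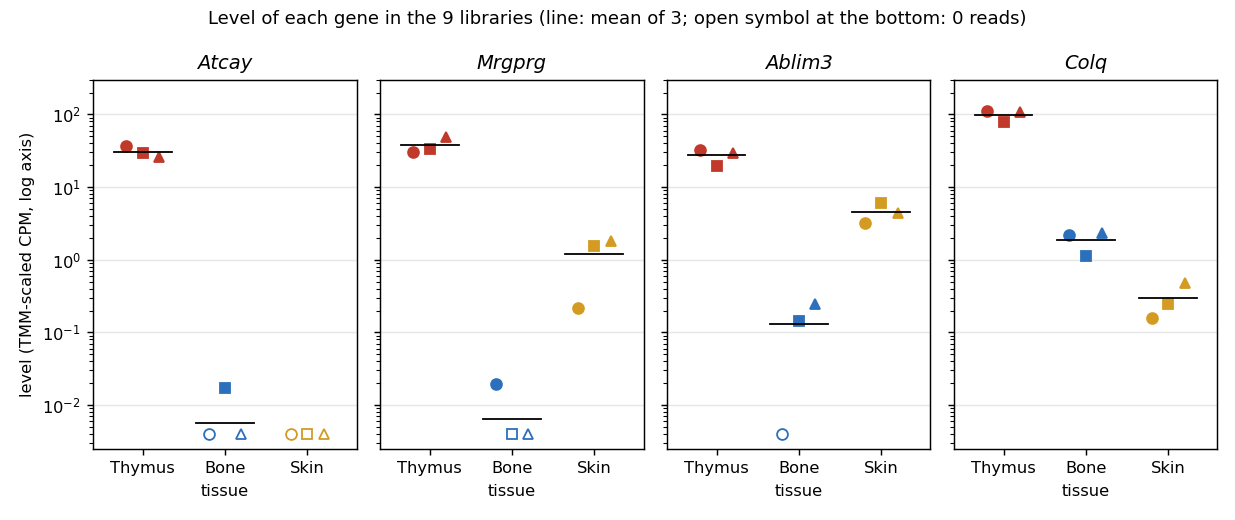
TMM-scaled CPM of the 4 genes in each of the 9 libraries, by tissue, with each library as a symbol and the mean as a line, on a logarithmic axis; open symbols at the bottom stand for 0 reads. Circles, squares and triangles are libraries 1, 2 and 3 in bone and skin and libraries 2, 3 and 1-3 in thymus. In each panel the 3 thymus libraries sit above all 6 bone and skin libraries, and the next tissue is bone for Colq and skin for Mrgprg and Ablim3.

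Mrgprg had the widest spread within the thymus. It lies on the minus strand of chromosome 7 at 143763710 to 143766993, a compact gene of 3.28 kb with 2 exon blocks. Mrgprg stood at 30.5 CPM in thymus library 2, 33.6 in thymus library 3 and 49.6 in thymus library 1-3. It stood at 0.214, 1.52 and 1.83 CPM in skin libraries 1, 2 and 3. Bone held 2 reads, both in library 1. Skin was low but not empty, and its range did not overlap with either the thymus or the bone range.

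The thymus mean of Mrgprg was 37.9 ± 10.3 CPM (SD, n = 3), or 32.0 CPM without library 1-3. It was 31.8 times the skin mean of 1.19 ± 0.860 CPM (SD, n = 3), and the lowest thymus library was still 16.6 times the highest skin library. The log2 ratio of the thymus mean to the skin mean was 4.99, or 5.64 with library size alone as the scaling. Against bone the ratio was 5828, with a counting interval of 1613 to 48131. Skin in turn was 181 times bone, with an interval of 49.5 to 1499.

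The promoter of Mrgprg, the only one of the 4 genes with an entry in the RefSeq promoter table, is shown because the gene was read in thymus and almost not in bone. The 300 bases run from 250 before to 50 after the start site, on the minus strand at chr7:143766944-143767243 in GRCm38.p6, the RefSeq form of mm10. Capitals mark each E-box (CANNTG, the site of basic helix-loop-helix factors) and the GC box (GGGCGG, a site of Sp factors).

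Mrgprg: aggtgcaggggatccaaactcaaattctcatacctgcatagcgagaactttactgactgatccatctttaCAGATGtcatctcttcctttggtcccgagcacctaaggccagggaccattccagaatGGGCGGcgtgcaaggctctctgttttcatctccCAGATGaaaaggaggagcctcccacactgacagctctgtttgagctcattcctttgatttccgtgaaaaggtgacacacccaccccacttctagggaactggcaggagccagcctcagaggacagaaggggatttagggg

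The window held 2 E-boxes, a motif found in 72.3% of the 32851 promoters in the table when both strands are searched. Its GC box, which does not overlap them, occurs in 35.7% of promoters, and a TCF core (CTTTGA), of which there was 1 match, in 16.0%. There were also 5 matches to the ETS core GGAA, which 96.0% of promoters hold. No match was found to the TATA box (TATAAA, in 13.6% of promoters), the CCAAT box (37.4%), the AP-1 site (TGANTCA, 7.81%) or the nuclear receptor core (AGGTCA, 16.3%). Nor was there a match to the RUNX core (TGTGGT, 16.8%), the SMAD element (CAGAC, 49.6%), the homeodomain core (TAAT, 58.0%) or the forkhead core (TGTTTAC, 3.65%). The GC content was 51.7%, beside a median of 52.7% over all promoters. A match to letters is a description of the window and not a bound site.

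Ablim3 was the least exclusive of the 4 genes. It lies on the minus strand of chromosome 18 at 61799393 to 61911852 and spans 112 kb with 23 exon blocks. Ablim3 stood at 32.3 CPM in thymus library 2, 19.6 in thymus library 3 and 29.6 in thymus library 1-3. Its skin values were 3.17, 6.07 and 4.42 CPM in libraries 1, 2 and 3, and its bone values were 0, 0.145 and 0.249 CPM. The 3 tissues formed separate steps with no overlap, and skin was the middle step.

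The thymus mean of Ablim3 was 27.2 ± 6.70 CPM (SD, n = 3). It was 207 times the bone mean of 0.131 ± 0.125 CPM and 5.97 times the skin mean of 4.55 ± 1.45 CPM (both SD, n = 3). The lowest thymus library was 3.23 times the highest skin library, the narrowest such gap among the 4 genes. On the log2 scale the fitted difference from skin was 2.58 ± 0.58 (SE), and the log2 ratio of means was 3.22 with library size alone as the scaling.

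Markers of smooth muscle and pericytes, contractile cells of vessel walls that also carry many actin-binding proteins, were highest in the thymus as well. Their sum over 9 genes was 632 to 740 CPM in thymus, beside 381 to 393 in bone and 249 to 261 in skin. Most thymus reads of that list came from Abcc9, a potassium channel subunit, at 375 CPM, while Cnn1, which encodes the contractile protein calponin 1, stood at 0.0362 CPM. Within the thymus, library 2 had the highest sum and the highest Ablim3 level. Their part in the level of Ablim3 was not tested.

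Colq had the highest level of the 4 genes per transcript length. It lies on the minus strand of chromosome 14 at 31523084 to 31577383 and spans 54.3 kb with 22 exon blocks. Colq stood at 110.2 CPM in thymus library 2, 78.7 in thymus library 3 and 108.5 in thymus library 1-3. Its bone values were 2.17, 1.12 and 2.35 CPM, and its skin values were 0.157, 0.249 and 0.473 CPM, in libraries 1, 2 and 3. No ranges overlapped, and here bone, not skin, was the middle step.

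The thymus mean of Colq was 99.1 ± 17.7 CPM (SD, n = 3), which was 52.7 times the bone mean of 1.88 ± 0.668 CPM and 338 times the skin mean of 0.293 ± 0.162 CPM (both SD, n = 3). Bone was 6.42 times skin. A predicted gene on the same strand, Gm49387, shares 199 exon bases (5.23%) with Colq in GENCODE M21 and was not listed in the counts.

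Markers of skeletal muscle, where ColQ is best known, were low in the thymus libraries. The sum of 16 skeletal muscle and myoid markers was 6.67 to 9.61 CPM in thymus, beside 4.57 to 5.20 in bone and 21.9 to 75.4 in skin, where Colq was lowest. The regulators Myod1, Myf5, Myog and Pax7, the muscle creatine kinase Ckm and the myosins Myh2, Myh3, Myh4 and Myh8 all had 0 thymus reads. All of these but Ckm also had 0 reads in bone, and Myf5 and Pax7 had 0 in skin. Ttn, which encodes titin, had the highest CPM of the list in thymus, at 3.43. The part of muscle cells in the level of Colq was not tested.

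Levels of different genes can be compared only per length, and for this the deposited RPKM values were used. In thymus, Colq stood at 33.8 ± 5.02 RPKM, Mrgprg at 21.0 ± 5.25, Atcay at 8.12 ± 1.53 and Ablim3 at 5.94 ± 1.36 (all SD, n = 3). The lowest Colq value, 28.0 RPKM, lay just above the highest Mrgprg value, 26.9, and all Mrgprg values lay above all Atcay values. Atcay and Ablim3 overlapped between libraries, although Atcay was the higher in each of the 3. Colq ranked between the 87.7th and 91.1st percentile of RPKM among detected genes in the thymus libraries, Mrgprg between 78.1 and 87.8, Atcay between 60.6 and 64.6, and Ablim3 between 49.2 and 59.7. The 4 genes thus ran from mid-range to the upper part of the thymus transcriptome.

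**Figure D2:**
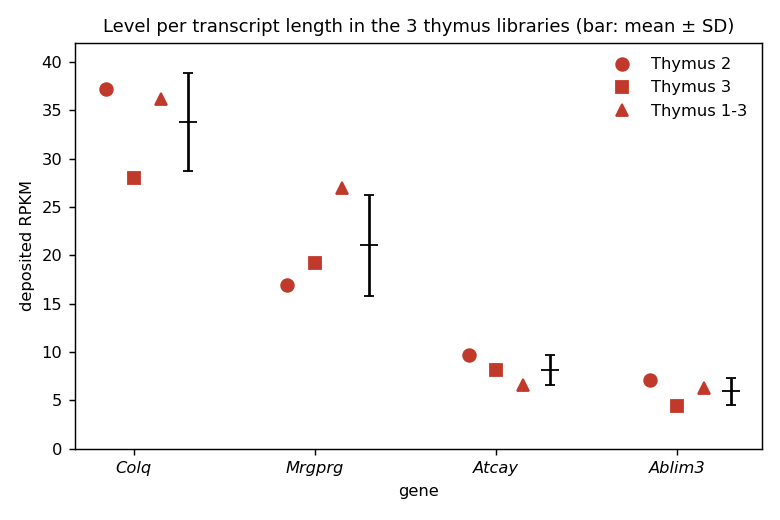
Deposited RPKM of the 4 genes in the 3 thymus libraries, with the mean and SD. Colq and Mrgprg do not overlap but come within 28.0 and 26.9 RPKM of each other, and Atcay and Ablim3 overlap.

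The libraries that were high for a gene were not the same for all 4. Thymus library 2 was highest for Atcay, Ablim3 and Colq, and thymus library 1-3 for Mrgprg. Thymus library 3 was lowest for Ablim3 and Colq. The coefficient of variation in CPM over the thymus libraries was 17.9% for Colq, 19.1% for Atcay, 24.6% for Ablim3 and 27.1% for Mrgprg.

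In all 4 genes every thymus library lay above all 6 other libraries, as in 11.1% of the 15635 genes tested. Against bone alone this held for 25.3% of genes, and against skin alone for 27%. The choice of the genes used these values, so nothing is read from that count. The 4 genes also passed the edgeR test as higher in thymus against bone, where 16.5% of genes did, and against skin, where 19.3% did, and again the choice used these contrasts. They entered the test through their thymus libraries. Of 5361 genes with a thymus mean at or above that of Ablim3, 101 (1.88%) had a ratio to the next tissue at least as large as its 5.97. In that order Atcay was 1st, Colq 10th, Mrgprg 15th and Ablim3 101st. Both limits were taken from Ablim3, the lowest of the 4 in each, so its last place and the presence of all 4 were fixed. The order uses the values the genes were chosen on, so nothing is read from it either.

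Between bone and skin, Colq was higher in every bone library than in every skin library, as in 29.3% of genes. Mrgprg and Ablim3 were lower in every bone library than in every skin library, as in 29.1% of genes. The next tissue was thus bone for Colq and skin for Mrgprg and Ablim3, while Atcay could not be placed. Likeness over the 9 libraries was taken as the root mean square difference between profiles of log2(CPM + 0.1), each centred on its own mean, so smaller values are more alike. The added 0.1 CPM caps differences for levels well below it, such as those of Atcay in bone and skin. Atcay and Colq differed by 1.21 and Mrgprg and Ablim3 by 1.32, while Ablim3 and Colq differed by 3.01 and Atcay and Ablim3 by 2.51. Atcay and Mrgprg were between these at 1.68, and Mrgprg and Colq stood at 2.35.

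The genes most like Atcay were Col6a4 (0.44), Wt1 (0.73), Extl1 (0.76), Pcdh15 (0.76) and Astn1 (0.77). Because of the cap set by the added 0.1 CPM, this order does not rank how near to absent a gene was in bone and skin. Col6a4, a chain of collagen VI, had 576 ± 77.5 CPM in thymus, beside 2.07 ± 0.873 in bone and 1.70 ± 0.582 in skin (SD, n = 3). Wt1, a transcription factor of mesothelium and kidney, had 19.2 ± 6.43 CPM in thymus (SD, n = 3) and 2 reads in all of bone. Pcdh15, a cadherin of inner-ear hair cells, was the only gene among these with 0 reads in both bone and skin, at 9.74 ± 1.62 CPM in thymus (SD, n = 3).

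The genes most like Mrgprg were Car4 (1.05), Extl1 (1.09), Batf2 (1.18), Kcng4 (1.24) and Tcf21 (1.31). Extl1, a glycosyltransferase of heparan sulphate synthesis, was thus near both Atcay and Mrgprg, with 46.2 ± 11.6 CPM in thymus, beside 0.0552 ± 0.0559 in bone and 0.270 ± 0.233 in skin (SD, n = 3). Tcf21, a transcription factor of embryonic mesenchyme, had 15.2 ± 2.51 CPM in thymus (SD, n = 3) and 6 reads in bone.

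The genes most like Ablim3 were Ccl11 (0.61), Wasf3 (0.71), Syt13 (0.79), Car4 (0.88) and Vtn (0.90). Ccl11, which encodes the eosinophil attractant eotaxin, had the same order of tissues, with 788 ± 99.4 CPM in thymus, 173 ± 22.1 in skin and 7.81 ± 3.55 in bone (SD, n = 3). Car4, a membrane-bound carbonic anhydrase, stood near both Mrgprg and Ablim3, with 7.80 ± 0.856 CPM in thymus, 0.751 ± 0.594 in skin (SD, n = 3) and 0 reads in bone.

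The genes most like Colq were Csf2rb2 (0.60), Adra2a (0.70), Col26a1 (0.71), Il34 (0.80) and Col6a5 (0.82). Adra2a, an adrenergic receptor, had 123 ± 23.5 CPM in thymus, beside 3.80 ± 1.84 in bone and 0.727 ± 0.288 in skin (SD, n = 3). Il34, a ligand of the macrophage receptor CSF1R, had 352 ± 67.0 CPM in thymus, beside 8.98 ± 1.36 in bone and 4.43 ± 2.64 in skin (SD, n = 3). Csf2rb2 has a near-identical paralogue, so its reads may be split uncertainly. These genes were found by their pattern, so their levels are a description.

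Relatives and partners of the 4 genes were not used to choose them. The 8 lists held 108 genes, of which 71 had enough reads to test. Thymus against bone, 20 rose and 11 fell in edgeR's quasi-likelihood test with Benjamini-Hochberg adjusted p under 0.05. These are 43.7% called, beside 32.6% of all genes tested, of which 16.5% rose and 16.1% fell. The median log2 fold change was 0.26, beside 0.02 over all genes. Thymus against skin, 13 rose and 14 fell (38.0%, beside 37.6% of all genes, with 19.3% higher and 18.3% lower), and scaling by library size alone turned that split into 30 higher and 7 lower while moving the median of all genes from 0.03 to 0.66. The median was -0.08, beside 0.03 over all genes. Bone against skin, 37 of the 71 passed, with 13 higher and 24 lower in bone (52.1%, beside 47.1% of all genes, with 23.7% higher and 23.4% lower).

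For ColQ, the enzyme it anchors was also read in the thymus, at low levels. Ache, which encodes acetylcholinesterase, stood at 4.41, 2.13 and 2.67 CPM in thymus libraries 2, 3 and 1-3, at 0.0171 to 1.12 CPM in bone and at 0.0879 to 0.208 CPM in skin. All thymus values lay above all others. Against skin the log2 difference was 4.36 ± 1.17 (SE, edgeR adjusted p = 0.0115), and it passed under all 20 alternatives; against bone it was 2.06 ± 1.05 (adjusted p = 0.156) and did not pass.

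None of the other genes tested that make, move or break down acetylcholine passed as higher in thymus. Chat, the enzyme of acetylcholine synthesis, had 12 reads, all in thymus library 1-3. Slc18a3, the vesicular transporter, had 0 reads in all 9 libraries, and Slc5a7, the high-affinity choline transporter, had 0 in thymus and bone. Prima1, the membrane anchor that stands in for ColQ in brain, had 24 thymus reads, all in library 1-3, beside 162 in bone and 53 in skin. Of the 5 genes tested in this list of 8, 0 rose and 1 fell against bone, and 1 rose and 1 fell against skin, with medians of 0.07 and -0.73. The shares called were 20% and 40%, beside 32.6% and 37.6% of all genes. Slc44a1, a choline transporter, fell by 0.97 ± 0.14 against bone and fell by 0.94 ± 0.14 against skin on the log2 scale (SE, edgeR adjusted p = 0.000276 and 0.000293). The fall against skin did not pass with library size alone. Bche, which encodes butyrylcholinesterase, another enzyme that ColQ can anchor, stood at 0.859 ± 0.351 CPM in thymus, beside 0.205 ± 0.354 in bone and 1.42 ± 0.401 in skin (SD, n = 3). Its log2 difference was 2.05 ± 1.55 against bone and -0.73 ± 1.49 against skin (SE, edgeR adjusted p = 0.343 and 0.742), and neither passed.

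The basal lamina and agrin-MuSK genes moved in both directions. Of 10 tested, 5 rose and 2 fell against bone and 2 rose and 3 fell against skin, with medians of 0.24 and -0.10. These are 70% and 50% called, beside 32.6% and 37.6% of all genes. Nid2 and Nid1, which encode the nidogens that link laminin to collagen IV, rose against bone by a log2 difference of 2.04 ± 0.21 and 1.57 ± 0.19 (SE). Hspg2, which encodes perlecan, the proteoglycan that holds ColQ in the basal lamina, rose against bone by 1.06 ± 0.18, from 1936 ± 51.3 to 4030.4 ± 606 CPM (SD, n = 3). Agrn and Dag1, for agrin and dystroglycan, rose by 1.15 ± 0.23 and 0.96 ± 0.16.

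Against skin the same matrix genes split. Nid2 rose by 0.99 ± 0.20 (SE), while Nid1 fell by 1.01 ± 0.19, a call lost with library size alone, and Hspg2 did not pass at 0.41 ± 0.18 (edgeR adjusted p = 0.0961). Lamb2, the laminin chain of the synaptic basal lamina, fell by 1.56 ± 0.16 against skin and fell by 0.58 ± 0.16 against bone. Without bone library 1 or 3 the latter was -0.55 each time and did not pass (edgeR adjusted p = 0.0545 and 0.0562). Col13a1, a synaptic transmembrane collagen, rose against skin by 3.19 ± 0.70. Musk, the muscle receptor kinase to which ColQ also binds, stood at 0.134, 0.117 and 0.559 CPM in thymus and fell by 3.51 ± 0.93 against skin. Lrp4, the agrin receptor, fell by 1.35 ± 0.19 against bone.

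Of the 21 acetylcholine receptor genes, 10 could be tested, and 2 rose and 0 fell against bone while 1 rose and 0 fell against skin. These are 20% and 10% called, below the 32.6% and 37.6% of all genes. Their medians were 1.85 and 1.46, but most of the genes tested stood below 1 CPM in thymus and had wide SEs, such as 2.08 for Chrna1 against bone. Chrnb1, the beta subunit of the muscle nicotinic receptor, stood at 19.6, 15.8 and 21.4 CPM in thymus, beside 2.78 to 5.58 in bone and 0.765 to 1.64 in skin, with no overlap. It rose by a log2 difference of 2.31 ± 0.36 against bone and 4.14 ± 0.40 against skin (SE, edgeR adjusted p = 0.000449 and 8.96e-06), and both held under all 20 alternatives.

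The partners of Chrnb1 in the muscle receptor were barely read. Chrna1, the alpha subunit, stood at 0.644 ± 0.340 CPM in thymus (SD, n = 3) and did not pass, Chrnd had 0 reads in all 9 libraries, and Chrne and Chrng had 10 and 15 reads in thymus. Chrnb4, a neuronal subunit, stood at 0.966 ± 0.391 CPM in thymus (SD, n = 3), above 9 reads in bone and 8 in skin, and did not pass either. Chrna4, with 0 reads in thymus library 2 and in bone, passed against bone, but lost the call in 8 of 16 alternatives. Without any 1 bone library, skin library 2, or thymus library 3 or 1-3, its adjusted p in edgeR was 0.0564 to 0.0910.

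**Figure D3:**
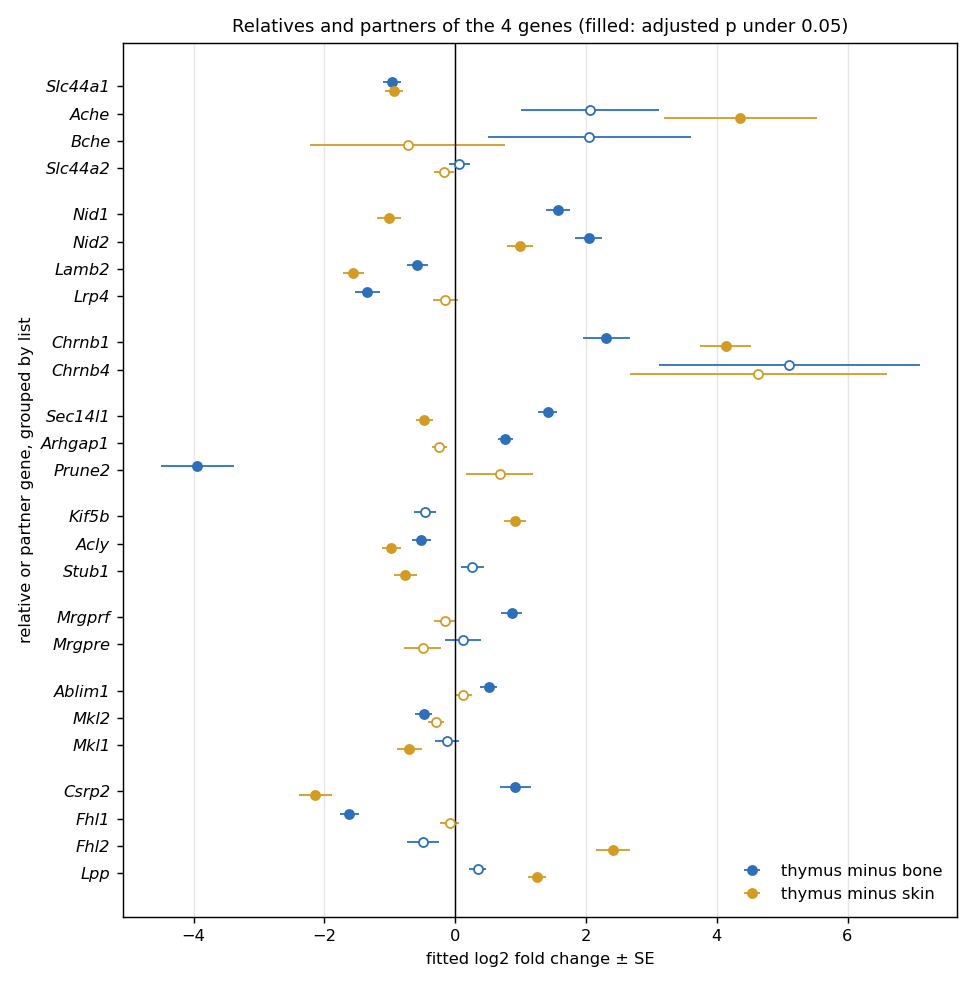
Fitted log2 differences of thymus against bone and against skin for genes among the up to 4 with the smallest p in each of the 8 lists, shown where they had more than 3 reads in each tissue; bars are SE and filled circles mark adjusted p under 0.05. Chrnb1 and Nid2 lie right of 0 in both comparisons, Slc44a1 left of 0 in both.

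For caytaxin, the relatives Prune2, Clvs2 and Bnip2 did not share its pattern, while Arhgap8 came nearer to it at a low level. Of 12 genes tested with a BCH or CRAL-TRIO domain, 4 rose and 2 fell against bone and 2 rose and 2 fell against skin, with medians of 0.32 and -0.28. The shares called were 50% and 33.3%, beside 32.6% and 37.6% of all genes. Prune2, a close BCH-domain relative, was the reverse of Atcay in bone: it stood at 1.18 ± 0.218 CPM in thymus and 18.2 ± 2.53 in bone (SD, n = 3) and fell by 3.94 ± 0.56 on the log2 scale (SE, edgeR adjusted p = 0.000265). Clvs2, a clathrin-vesicle protein of neurons, was read in skin only, at 3.31 ± 1.65 CPM (SD, n = 3), with 0 reads in thymus and bone. Bnip2, the founding BCH-domain gene, overlapped between thymus, at 72.4 to 88.1 CPM, and bone, at 78.5 to 80.2 CPM. Its rise against skin of 0.36 ± 0.12 (SE) was 0.30 to 0.38 and did not pass without thymus library 2 or 3 or skin library 1 or 2 (edgeR adjusted p = 0.0544 to 0.111).

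Several other members of the domain family rose. Sec14l1, a lipid-binding regulator of innate signalling, and Arhgap1, a GTPase-activating protein, rose against bone by 1.41 ± 0.14 and 0.77 ± 0.12 (SE). Against skin Sec14l1 fell by 0.47 ± 0.14, but with library size alone it was higher, by 0.16. Without skin library 2 or thymus library 3 it was -0.40 or -0.38 and did not pass (edgeR adjusted p = 0.0779 and 0.0871). Ttpal, a relative of the vitamin E carrier, rose in both comparisons, by 0.62 ± 0.16 and 0.91 ± 0.16. Sec14l2, another lipid-binding relative, fell against bone, at 1.72 ± 0.562 CPM in thymus and 4.43 to 7.72 in bone (SD, n = 3). Arhgap8 rose against bone, from 1 read in bone to 0.940 ± 0.338 CPM in thymus (SD, n = 3). Its skin level was also low, at 0.109 ± 0.0388 CPM (SD, n = 3). The log2 difference from skin, 3.09 ± 1.32 (SE), did not pass (edgeR adjusted p = 0.0873).

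Genes of proteins reported to bind caytaxin were read in all 3 tissues, except Chat. Of 6 tested, 0 rose and 2 fell against bone and 1 rose and 2 fell against skin, with medians of -0.37 and -0.20. The shares called were 33.3% and 50%, beside 32.6% and 37.6% of all genes. Kif5b, a kinesin heavy chain, rose against skin by 0.92 ± 0.17 (SE). Acly, the enzyme that makes cytosolic acetyl-CoA, fell by 0.52 ± 0.14 against bone and fell by 0.98 ± 0.14 against skin. The former did not pass without bone library 1 (-0.46, edgeR adjusted p = 0.0593), nor the latter with library size alone. Stub1, a ubiquitin ligase, fell by 0.76 ± 0.18 against skin, a call also lost with library size alone. Klc1, a kinesin light chain, did not pass in either comparison.

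Mrgprg was not accompanied by the sensory members of its family. Of 19 other genes of the family, 11 had 0 reads in all 9 libraries, among them the mast-cell receptor Mrgprb2 and the itch receptor Mrgpra3, and only 2 could be tested. Mrgprd, a receptor of skin nociceptors, had 12 reads in thymus and 8 in bone. Mrgpra2b and Mrgpra2a had 200 and 59 reads in bone and 0 in thymus and skin. Mast-cell markers summed to 0.703 to 0.882 CPM over 7 genes in thymus, beside 7.69 to 31.4 in bone and 1.88 to 2.70 in skin. Most of the bone sum came from Kit, at 15.4 CPM, and Fcer1a and Mrgprb2 had 0 reads in bone and skin.

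The 2 relatives with enough reads, Mrgprf and Mrgpre, were read in all 3 tissues. Mrgprf, an orphan receptor, stood at 98.5, 83.1 and 130.3 CPM in thymus, beside 51.3 to 62.1 in bone and 113 to 119 in skin. It rose against bone by 0.87 ± 0.16 (SE, edgeR adjusted p = 0.00141), under all 20 alternatives, and overlapped with skin. Mrgpre, the next gene after Mrgprg on the chromosome, stood at 4.56 ± 0.664 CPM in thymus, beside 4.19 ± 0.693 in bone and 6.44 ± 0.570 in skin (SD, n = 3) and did not pass against either. The list's medians were 0.49 against bone and -0.33 against skin over these 2 genes, with 1 rise against bone. The shares called were 50% and 0%, beside 32.6% and 37.6% of all genes, and nothing is read from 2 genes.

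Ablim1, a paralogue of Ablim3, was broadly read, at 307 ± 15.3 CPM in thymus, beside 215 ± 16.7 in bone and 282 ± 24.4 in skin (SD, n = 3), and rose against bone by 0.51 ± 0.13 (SE, edgeR adjusted p = 0.00912). Among the genes tested of the route from STARS to SRF, which were Srf, Mkl1, Mkl2 and Myocd, none passed as higher in the thymus. Abra, which encodes STARS, had 0 thymus reads, 129 in bone and 10 in skin. Srf did not pass against bone (0.03 ± 0.20) or skin (-0.51 ± 0.20). Of its cofactors, Mkl2 fell by 0.48 ± 0.13 against bone and Mkl1 fell by 0.70 ± 0.19 against skin (all SE). Without bone library 3, thymus library 2 or thymus library 3 the value for Mkl2 was -0.42, -0.43 and -0.44 and did not pass (edgeR adjusted p = 0.0511 to 0.0570), and that for Mkl1 did not pass with library size alone. Over the 6 genes tested in this list, Ablim1 included, 1 rose and 2 fell against bone, and 0 rose and 2 fell against skin, with medians of -0.30 and -0.40. The shares called were 50% and 33.3%, beside 32.6% and 37.6% of all genes.

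Other villin headpiece and LIM genes of the actin cytoskeleton were all testable. Of 20, 7 rose and 2 fell against bone and 6 rose and 4 fell against skin, with medians of 0.37 and 0.07. The shares called were 45% and 50%, beside 32.6% and 37.6% of all genes. Of the 7 rises against bone, 5 did not pass without at least 1 library. Svil, which encodes supervillin, Lima1, Pdlim2 and Pdlim5, all of actin-bound proteins, rose by 0.57, 0.46, 0.97 and 0.37, and each lost the call without bone library 3 and without thymus library 2 (0.30 to 0.86, edgeR adjusted p = 0.0512 to 0.158). Svil also lost it without bone library 1 or thymus library 1-3, Lima1 without bone library 2 or thymus library 1-3, and Pdlim2 without bone library 1 or thymus library 3 (0.35 to 1.02, edgeR adjusted p = 0.0561 to 0.133). Pdlim5 kept the call in 4 of 20 alternatives, and lost it also without bone library 1 or 2, skin library 2 or thymus library 3 (0.36 to 0.38, edgeR adjusted p = 0.0545 to 0.115). Csrp1, a LIM-only protein of smooth muscle, rose in both comparisons, by 1.37 ± 0.20 and 1.24 ± 0.20 (SE). Lpp, a LIM protein of cell adhesions, rose against skin by 1.26 ± 0.14, and Fhl2, a LIM-only cofactor, by 2.42 ± 0.26. Csrp2 fell by 2.14 ± 0.25 against skin and rose by 0.92 ± 0.24 against bone. The latter, the fifth of those rises, was 0.81 without bone library 1 and 0.84 without thymus library 1-3 and did not pass (edgeR adjusted p = 0.0534 and 0.0637). Fhl1 fell by 1.62 ± 0.14 against bone. Vill, a villin-like headpiece gene, fell by 3.74 ± 0.53 against bone and fell by 2.99 ± 0.52 against skin. Against skin, Pdlim2 and Pdlim5 rose under all 20 alternatives, while Lima1 fell, a call lost in 4 of 20. Zyx, another gene of the list, also fell against skin, under all 20.

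The 3 genes on either side of each of the 4 were read to see whether their surroundings were high in the thymus too. Of 24 neighbours, 21 could be tested, and 5 rose and 5 fell against bone, while 3 rose and 3 fell against skin, beside 32.6% and 37.6% of all genes called. With library size alone the split against skin became 7 higher and 1 lower.

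Next to Atcay, Zfr2, a zinc-finger RNA-binding protein gene, rose against bone by 1.27 ± 0.28 (SE) and Dapk3, a kinase of actomyosin contraction, by 0.67 ± 0.17, while Matk fell by 3.12 ± 0.91. Without bone library 2, thymus library 2 or thymus library 1-3 the value for Matk was -2.49, -3.03 and -2.97 and did not pass (edgeR adjusted p = 0.0584 to 0.119). Mrpl54 fell by 1.13 ± 0.21 against skin, a call lost with library size alone, and Nmrk2 had 0 reads. None was absent from bone and skin while high in thymus, as Atcay was.

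Next to Mrgprg, Osbpl5, an oxysterol-binding protein gene, rose in both comparisons, by 0.94 ± 0.13 and 0.53 ± 0.13 (SE). Tnfrsf23, a decoy receptor, fell by 1.71 ± 0.29 against bone and fell by 3.43 ± 0.31 against skin. Tnfrsf22, Mrgpre, Nadsyn1 and Dhcr7 did not pass.

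Next to Ablim3, Afap1l1 fell by 1.84 ± 0.48 against bone (SE), and without bone library 2 it was -1.39 (edgeR adjusted p = 0.0741). Grpel2 rose against skin by 0.63 ± 0.22, and without bone library 3, any 1 skin library, or thymus library 2 or 3 it was 0.44 to 0.68 (edgeR adjusted p = 0.0537 to 0.186). Sh3tc2 and 1500015A07Rik did not pass, and Htr4 had 0 reads.

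Next to Colq, Btd, which encodes biotinidase, and Sh3bp5 rose against bone by 1.30 ± 0.11 and 1.22 ± 0.14 (SE). Ankrd28 fell by 1.18 ± 0.18 against bone and rose against skin by 1.39 ± 0.18. Hacl1, Eaf1 and Mettl6 did not pass. The largest rise that passed among the neighbours of the 4 genes, that of Ankrd28, compares with fitted differences of 5.72 ± 0.38 and 8.39 ± 0.44 for Colq itself, which describe the values it was chosen on.

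**Figure D4:**
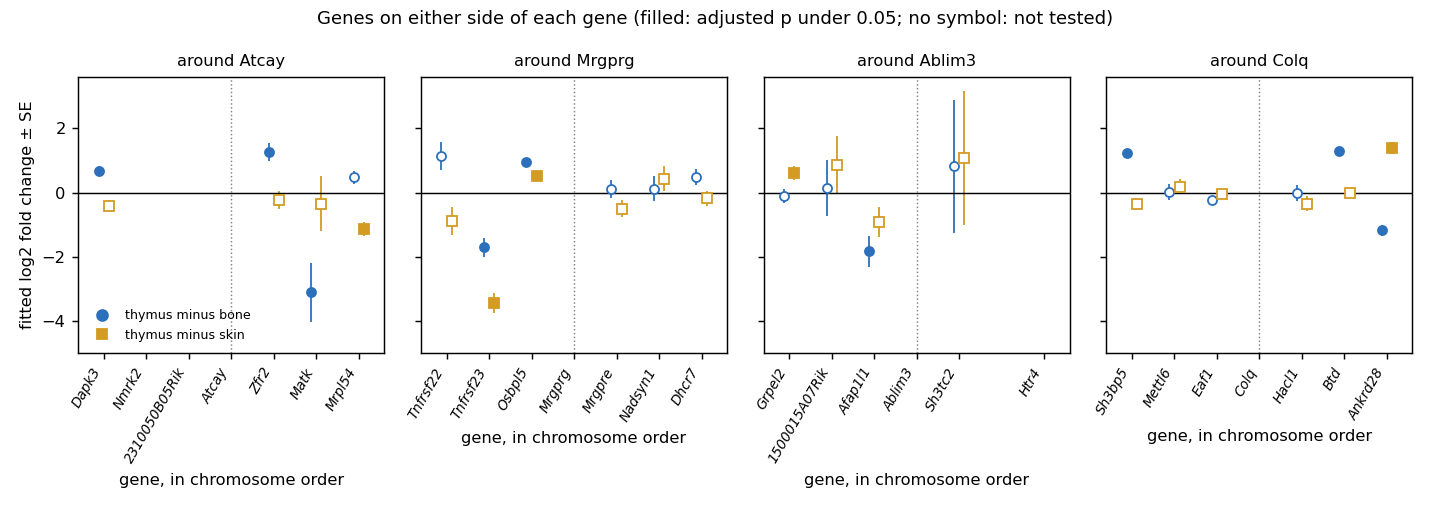
Fitted log2 differences (± SE) of the neighbours named in the text around Atcay, Mrgprg, Ablim3 and Colq in chromosome order, thymus minus bone (circles) and thymus minus skin (squares), filled where adjusted p was under 0.05. The neighbours lie on both sides of 0, from -3.43 for Tnfrsf23 to 1.39 for Ankrd28.

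Markers of other cells give a measure of what else the thymus libraries held. Thymocyte markers over 9 genes summed to 65.5 CPM in thymus library 2, 182 in library 3 and 110 in library 1-3, against 29.6 to 38.5 in bone and 0.117 to 0.819 in skin. Library 3, the highest in thymocyte RNA, was the lowest of the thymus libraries for Ablim3 and Colq and the middle one for Atcay and Mrgprg. Thymic epithelial markers over 9 genes summed to 10.3 to 14.8 CPM in thymus, beside 1.10 to 2.70 in bone and 16.2 to 57.1 in skin. The top gene of that list was Cldn3 in thymus, at 3.81 CPM, and the keratin gene Krt5 in skin, at 14.4 CPM. Every gene of the list was read in thymus, while Aire had 0 reads in bone and skin and Psmb11 had 0 in bone.

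Tuft-cell markers, read over 6 genes because these chemosensory epithelial cells of the thymus carry parts of the acetylcholine pathway, were also highest in the thymus. They summed to 335 to 378 CPM in thymus, beside 111 to 131 in bone and 120 to 151 in skin. Dclk1, a kinase that is not limited to tuft cells, gave 301 CPM of the thymus sum, while Trpm5, Pou2f3 and Gnat3 stood at 1.21, 2.69 and 0.267 CPM. Neuroendocrine markers over 9 genes summed to 3.83 to 6.12 CPM in thymus, beside 0.874 to 3.47 in bone and 2.56 to 4.45 in skin. The part of thymocytes, epithelial, tuft or neuroendocrine cells in the levels of the 4 genes was not tested.

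Endothelial markers over 7 genes summed to 59.7 to 97.9 CPM in thymus, beside 62.0 to 77.4 in bone and 247 to 346 in skin, so they were highest in skin. Schwann-cell markers over 7 genes summed to 2.01 to 3.68 CPM in thymus, beside 29.1 to 46.7 in bone and 18.7 to 31.7 in skin. B-cell markers over 6 genes summed to 0.554 to 4.47 CPM in thymus and 87.5 to 124 in bone, and erythroid markers over 6 genes to 0 to 1.66 and 9.69 to 13.0. The bone libraries thus held more myeloid, B-cell and erythroid RNA than the thymus libraries. The part of these cells in the bone levels of the 4 genes was not tested.

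**Figure D5:**
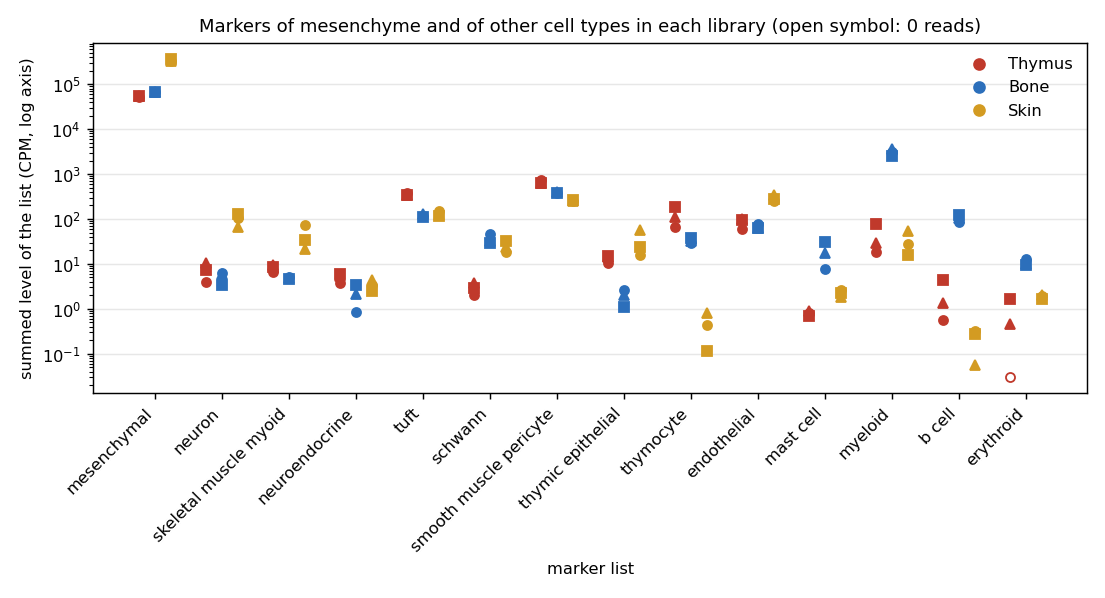
Summed TMM-scaled CPM of the marker lists in each library, by tissue, on a logarithmic axis, with an open symbol for 0 reads. Smooth muscle and pericyte, tuft and thymocyte sums are highest in the thymus libraries, and neuron and skeletal muscle sums in the skin libraries.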

How the data were processed

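RNA-seq was read in 9 libraries, 3 per tissue. The counts that were deposited are whole reads for each gene symbol. The authors' deposited RPKM values come with mm10 coordinates and served to compare levels between genes. CASAVA 1.8.2, HTSeq 0.5.4 and mm10 are named in the submitters' processing notes. No source used here gives the aligner, annotation or strand setting. Summary lines that name no gene took 5.05 to 14.8% of reads and were left out.

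Counts were fitted with edgeR 4.0.16 in R 4.3.3 (quasi-likelihood test, robust, TMM factors 0.701 to 1.23, filterByExpr by tissue, 15635 genes), with all 9 libraries in 1 fit with a mean per tissue, no block, and Benjamini-Hochberg adjustment over all genes at a threshold of 0.05. The SE of a log2 fold change is its size over the square root of F, an approximation. Replicate libraries differed far beyond sampling noise, by a chi-square of 92.9 to 293.2 per degree of freedom.

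CPM are scaled by library size and TMM. For a group without reads, 3 reads over its libraries served as the floor, and groups of 1 to 3 reads have exact 95% intervals. The 4 genes and all lists were chosen with earlier results of these data known. Besides the 4 genes, the text names, per relative or partner list, up to 4 genes with the smallest p and those behind counts of 5 or fewer, the neighbours, the 5 genes most alike in profile, predicted genes left out, and marker genes at 0 or with most reads; a few others (Prima1, Chrna1, Chrnd, Chrne, Chrng, Mrgprd, Mrgpra3, Srf, Myocd, Csrp1, Svil, Lima1, Pdlim2, Pdlim5, Klc1, Cnn1, Trpm5, Pou2f3 and Gnat3) were named after their values were seen. A few genes of the lists count in the totals but are not reported here. Overlapping exons come from GENCODE M21 and the promoter from RefSeq. Alternatives were other scalings and filters, DESeq2 1.42.0, limma 3.58.1 on log2(RPKM + 1) and log2(RPKM + 0.1), only the tissues compared, a replicate block and leaving out each library.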

Additional observations from a re-analysis of the deposited data

How the results depend on the processing

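Of 74 gene differences followed, 50 passed in the same direction under every alternative that could give a value, and 24 were lost or reversed under at least 1. The only reversal was Sec14l1 in thymus against skin, at 0.16 with library size alone and 0.079 with limma on log2(RPKM + 1), with or without the filter, and 0.081 on log2(RPKM + 0.1); the cause was not tested. With library size alone the log2 ratio between thymus and skin was 3.22 in place of 2.58 for Ablim3 and 5.64 in place of 4.99 for Mrgprg. The median of all genes moved to 0.66. The calls of thymus against skin then numbered 7219 higher and 1239 lower, and those of bone against skin 7474 and 1393.

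With the replicate block, 3399 genes passed in thymus against bone in place of 5101; the relatives and partners called were 22, 30 and 36 in the 3 comparisons in place of 31, 27 and 37. The numbers do not pair tissues by the labels, and same-numbered libraries deviated with correlations of -0.04 to 0.06. Leaving out 1 library gave 4066 to 5405 genes in thymus against bone, and thymus means of 27.7 to 33.5 CPM for Atcay, 32.0 to 41.6 for Mrgprg, 24.6 to 31.0 for Ablim3 and 93.6 to 109.3 for Colq. Depth did not allow an order of bone and skin for Atcay.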
